A study of Mus musculus with 16 samples.

Results

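Connexins and pannexins are the genes described here: Gjc3, Gja1, Gja4, Gjb2, Gjb6, Gjc1, Panx1 and Panx3. These 8 genes, of 19505 with a symbol on the array, were chosen by name, each through its probe set with the highest mean over the 16 arrays, and each had only 1 probe set. Gjc3 was put on the list because its signal fell in both disc compartments when Sox9 was deleted. Its knockout values are therefore given as a description, with no test, and the tests below concern the other 7 genes and, for Gjc3, the comparison of compartments.

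The arrays measured RNA of the mouse intervertebral disc, from its gel-like core, the nucleus pulposus (NP), and its fibrous outer ring, the annulus fibrosus (AF). The 4 groups were NP cKO, NP CTR, AF cKO and AF CTR, with 4 arrays each, from 8 female mice of 3 to 4 months. All mice carried Sox9fl/fl, a Sox9 gene flanked by loxP sites, and the 4 cKO mice also carried AcanCreERT2, a tamoxifen-inducible Cre driven by the aggrecan gene of cartilage-like cells. The cKO mice received tamoxifen on 2 consecutive days, and tissue was collected on day 5 after the first injection. Whether the CTR mice (Sox9fl/fl, no Cre named) were injected is not stated, so tamoxifen and genotype cannot be told apart. Lumbar and caudal discs were pooled within each animal, and each animal gave 1 NP array and 1 AF array. The Cre acts only in cells that use Acan, and in bulk tissue fewer cells of a type and less RNA per cell cannot be told apart.

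Connexins form gap junctions, channels that join neighbouring cells and pass ions and small metabolites, and unpaired hemichannels that open to the outside. Pannexins resemble them in fold and act mainly as single-membrane channels that release ATP. Gja1 encodes connexin 43, the principal gap junction protein of bone, cartilage and disc cells. Gjc3 encodes a connexin known from myelinating glia and the cochlea of the mouse, and Panx3 a pannexin of hypertrophic chondrocytes and osteoblasts.

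The start regions of the 2 connexin genes measured above background, Gjc3 and Gja1, are shown because the signal of one fell far in Sox9-deleted tissue and that of the other did not fall. They come from RefSeq (GRCm38.p6) at chr5:137963049-137963348 on the minus strand and chr10:56377050-56377349 on the plus strand, and each runs 5′ to 3′ on the strand of its gene. Lower case marks the 250 bases before the annotated start and capitals the 50 bases from it.
Gjc3: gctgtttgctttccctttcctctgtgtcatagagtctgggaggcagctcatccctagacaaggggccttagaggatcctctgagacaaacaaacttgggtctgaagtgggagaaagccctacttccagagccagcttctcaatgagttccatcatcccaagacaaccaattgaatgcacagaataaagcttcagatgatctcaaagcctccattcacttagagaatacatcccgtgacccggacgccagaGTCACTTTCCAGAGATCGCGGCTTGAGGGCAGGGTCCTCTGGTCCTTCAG
Gja1: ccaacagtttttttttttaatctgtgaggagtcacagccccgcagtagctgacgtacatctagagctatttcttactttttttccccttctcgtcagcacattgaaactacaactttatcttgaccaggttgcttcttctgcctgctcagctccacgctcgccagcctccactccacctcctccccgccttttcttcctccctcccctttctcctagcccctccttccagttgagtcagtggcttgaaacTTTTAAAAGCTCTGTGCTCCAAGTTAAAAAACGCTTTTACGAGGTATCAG
Neither window held ACAAT or ACAAAG on either strand, letters that occur in the motif bound by SOX proteins. Among 6 of the 8 genes with a listed promoter (Gjc1 and Panx3 had no entry), ACAAT occurred once, in Gja4 at position -86 relative to the start, and ACAAAG in none. No occurrences overlapped. Of 32851 promoter windows of 300 bases, 31.0% held ACAAT, 18.7% ACAAAG and 42.9% at least 1 of them. A match is a description of letters and not a binding site, and these windows say nothing of sites farther away.

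The values are log2 signals, on which 1 unit is a doubling. Median signals per array lay between 6.66 and 6.89 and the medians of 5222 negative control probe sets between 6.14 and 6.59. A gene was taken as above background on an array where its signal exceeded the 95th percentile of that array's negative controls, which lay between 9.74 and 10.78. This is a strict limit: 7.16% of 22206 probe sets passed it on all 16 arrays and 21.8% on at least 1. Sox9 averaged 9.75 ± 0.25 in NP cKO and 16.27 ± 0.36 in NP CTR, and 12.24 ± 0.65 in AF cKO and 16.92 ± 0.51 in AF CTR (SD, n = 4 each). Krt8, Krt19 and Cd24a, markers of NP cells, were above background in both tissues, while Col1a1, Col1a2 and Lum of the AF were above it in the AF alone. Other genes of these 2 lists went differently. Krt18 was above background in the NP alone, and Pax1 of the NP list in the AF alone. Dcn and Fmod of the AF list were also above it on at least 1 array of NP CTR and of NP cKO, and Angptl7 and Cilp in NP cKO. The notochord genes Shh, Noto, Foxa1 and Foxa2 were not above background on any array. The AF cKO arrays 2 and 4 carried skeletal muscle genes (list means 9.47 and 8.99, against 6.30 and 6.67 on AF cKO arrays 3 and 1 and 6.23 to 7.05 in AF CTR). NP cKO array 4 carried AF and tendon genes (10.13, against 7.55 to 8.53 on the other NP cKO arrays and 7.35 to 8.10 in NP CTR).

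**Figure D1:**
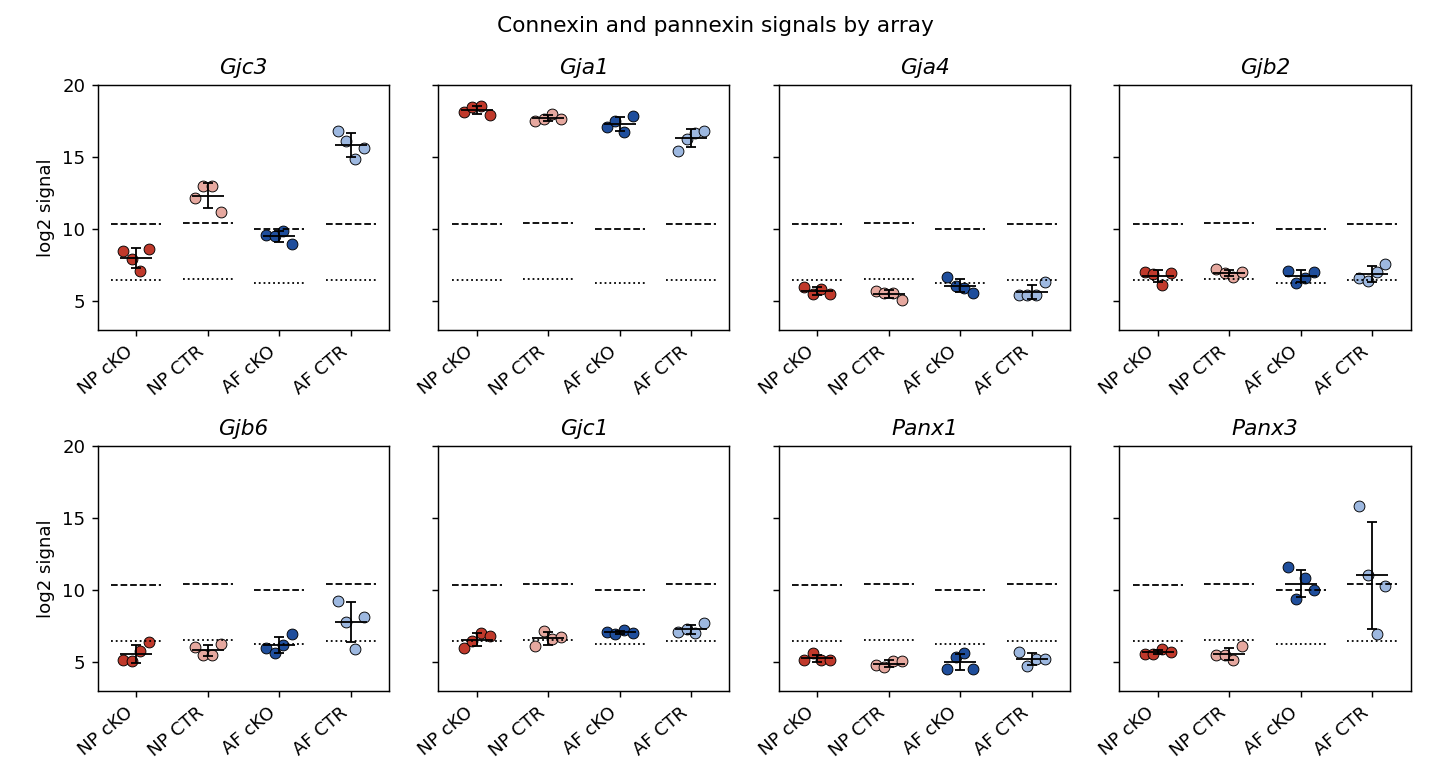
Log2 signal (vertical axis) of the 8 genes on each array (points, replicates 1 to 4 from left to right), with the group mean and SD, for NP cKO, NP CTR, AF cKO and AF CTR. Dashed and dotted lines are the group averages of the 95th percentile and the median of the negative controls. Gja1 lies far above the dashed line on all 16 arrays. Gjc3 lies above it on the CTR arrays, by the least on NP CTR replicate 4 (11.17), and Panx3 reaches it in the AF only.

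Gjc3 fell to background in the NP and close to it in the AF of cKO mice. In the NP, Gjc3 had 8.46, 7.94, 7.10 and 8.63 log2 signal on the cKO arrays, against 12.15, 13.02, 12.98 and 11.17 on the CTR arrays. All 4 CTR arrays stood above background and no cKO array did. In the AF, Gjc3 had 9.58, 9.55, 9.87 and 9.0 on the cKO arrays, against 16.82, 16.11, 14.86 and 15.64 on the CTR arrays. Only AF cKO replicate 3 was above background, by a small margin (its 95th percentile was 9.82). The cKO and CTR groups did not overlap in either compartment. Gjc3 was chosen for this fall, so nothing is read from that separation.

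The Gjc3 means were 8.03 ± 0.68 in NP cKO and 12.33 ± 0.87 in NP CTR, a log2 difference of -4.30, which is at least 3.92-fold because the NP cKO signal gives only a bound. They were 9.5 ± 0.36 in AF cKO and 15.86 ± 0.82 in AF CTR, a log2 difference of -6.36, with no fold given because only 1 of 4 AF cKO arrays was above background. Leaving out any 1 array gave from -4.68 to -3.99 in the NP and from -6.69 to -6.04 in the AF. It was -4.49 without NP cKO replicate 4, the array with AF and tendon genes, and -6.13 without AF cKO replicates 2 and 4, those with muscle genes. Of all probe sets, 0.122% were called in the NP and 0.0991% in the AF at an adjusted p under 0.05, shares that include Gjc3 and from which nothing is read about it. The drop differed by 2.06 on the log2 scale between compartments (NP minus AF), given without a test. The NP cKO signal lies within the background, and only 1 of 4 AF cKO arrays was above it. This limits the size of the drop that can be measured in both compartments.

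In control mice the order of compartments was clear. Gjc3 was 11.5-fold lower in CTR NP than in CTR AF (log2 difference -3.53, SE 0.43, limma adjusted p = 1.3e-05), and the 4 NP arrays all lay below the 4 AF arrays, as groups without overlap did for 22.6% of all probe sets. The call held in all 27 alternative settings, with differences from -3.86 to -3.14. In cKO mice the NP arrays again lay below the AF arrays, with a log2 difference of -1.47 (SE 0.43, adjusted p = 0.0179), and 26.8% of all probe sets likewise had no overlap. No fold is given there since NP cKO was at background. This difference no longer passed when NP cKO replicate 3 (adjusted p = 0.0683) or AF cKO replicate 3 (adjusted p = 0.0540) was left out. The 4 group means thus ran, highest first, AF CTR, NP CTR, AF cKO, NP cKO.

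Gjc3 is known from myelinating glia, and the glial markers were examined on the same arrays. Of 15 Schwann cell and myelin genes measured, the list mean was 7.67 to 7.81 in NP cKO and 7.83 to 8.31 in NP CTR, and 7.59 to 8.05 in AF cKO and 7.57 to 8.27 in AF CTR. Only Pmp22 and Ncam1 were above background in every group, and Mbp and S100b on some arrays. The Schwann cell regulators Sox10 and Egr2 were not above background on any array. S100b, also a gene of chondrocytes, fell by 1.46 on the log2 scale in NP cKO (SE 0.26, adjusted p = 0.0277), as did Sh3tc2 (by 1.66, SE 0.29, adjusted p = 0.0277), which stayed below background in both NP groups. These were 2 of 15 genes, beside 0.122% of all probe sets called. S100b was above background on no NP cKO array and averaged 9.82 in NP CTR, so the size of its fall is not well measured. In the AF, S100b differed by -1.04 and Sh3tc2 by -1.28, and neither passed (limma adjusted p = 0.162 and 0.133). The 17 cartilage genes averaged 7.88 to 9.15 in NP cKO and 8.47 to 8.76 in NP CTR, and 10.68 to 11.42 in AF cKO and 11.39 to 13.72 in AF CTR. The AF ranges overlapped at 1 array of each group. Of the 17 genes, 2 passed as lower in AF cKO and 0 in NP cKO, beside 0.0991% and 0.122% of all probe sets called. In the AF, 14 of the 17 lay below 0 (median -1.51), beside 11901 of 22206 probe sets, and 13 had an unadjusted limma p under 0.05. For the NP these were 11 below 0 (median -0.21), beside 11096 of 22206, and 4. In the NP, 3 of 4 cKO arrays lay below every CTR array, the exception being replicate 4, the array with AF and tendon genes. The part of the cartilage genes in the Gjc3 result was not tested.

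The genes whose profile was most like that of Gjc3 over the 16 arrays, out of 18524 ranked, were Meltf (r = 0.944), Sox9 (r = 0.914), Slc26a2 (r = 0.913), Slc35a3 (r = 0.876), Recql5 (r = 0.873), Rtkn (r = 0.867), Tubb2b (r = 0.861) and Fgfr3 (r = 0.854). The arrays come from 8 animals in 4 groups, so these values mainly carry the group means. Once the group means were taken off, r lay between 0.293 (Rtkn) and 0.639 (Fgfr3). The group means of Recql5 (5.13 to 5.98) and Tubb2b (7.14 to 9.13) all lay below 9.74, the lowest 95th percentile of the negative controls. Slc35a3 (8.97 to 10.07) and Slc26a2 averaged above 9.74 in AF CTR alone. Part of these profiles thus lies at background. Meltf, a melanotransferrin of the cell surface, averaged 9.38 in NP cKO and 12.32 in NP CTR, and 10.52 in AF cKO and 13.97 in AF CTR. Slc26a2, the sulfate transporter that feeds proteoglycan sulfation, averaged 8.26 in NP cKO and 9.60 in NP CTR, and 9.54 in AF cKO and 11.12 in AF CTR. Fgfr3, a receptor of growth plate chondrocytes, averaged 8.21 in NP cKO and 10.13 in NP CTR, and 10.99 in AF cKO and 13.49 in AF CTR. By rank correlation the first 3 places went to Sox9, Meltf and, tied, Slc26a2 and Recql5, while Fgfr3 came only at rank 23.

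**Figure D2:**
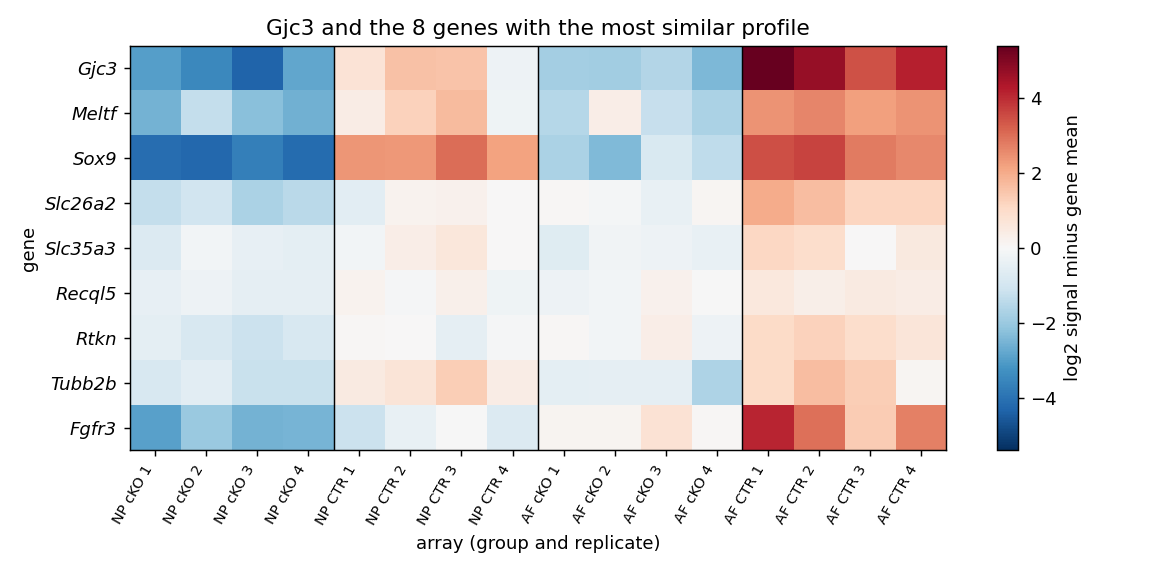
Log2 signal minus the gene's mean over the 16 arrays (colour scale) for Gjc3 and the 8 genes of most similar profile (rows), on each array (columns, grouped as NP cKO, NP CTR, AF cKO and AF CTR). Gjc3 has the widest range of the 9 genes, and Sox9 is high in both CTR groups.

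Gja1 was far above background on all 16 arrays, and its differences between cKO and CTR did not pass the test. In the NP it had 18.10, 18.46, 18.55 and 17.94 log2 signal on the cKO arrays, against 17.49, 17.67, 17.96 and 17.62 on the CTR arrays. The lowest cKO array fell just under the highest CTR array, so the groups overlapped. In the AF it had 17.08, 17.48, 16.75 and 17.85 on the cKO arrays, against 15.45, 16.25, 16.66 and 16.83 on the CTR arrays. Here too the groups overlapped, at AF cKO replicate 3 and AF CTR replicate 4.

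Gja1 averaged 18.26 ± 0.29 in NP cKO and 17.69 ± 0.20 in NP CTR, a log2 difference of 0.58 (SE 0.28, interval -0.02 to 1.17) that did not pass the test (adjusted p = 1.0). It averaged 17.29 ± 0.48 in AF cKO and 16.30 ± 0.62 in AF CTR, a log2 difference of 0.99 (SE 0.28, 95% interval 0.40 to 1.58) that did not pass it either (adjusted p = 0.225). Without the muscle-bearing AF cKO replicates 2 and 4 the AF difference was 0.62 (adjusted p = 0.717). The compartments' changes differed by -0.41 (SE 0.40, adjusted p = 0.835).

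Between compartments Gja1 passed the test. It was 2.62-fold higher in CTR NP than in CTR AF (log2 difference 1.39, SE 0.28, adjusted p = 0.00180) and 1.97-fold higher in cKO NP than in cKO AF (0.98, SE 0.28, adjusted p = 0.0169), with no overlap of arrays in either. The cKO difference between compartments is of the same size as the AF difference between cKO and CTR, which did not pass after adjustment. The CTR call held in all 27 alternative settings. The cKO call did not hold when NP cKO replicate 3 (adjusted p = 0.0511) or AF cKO replicate 3 (adjusted p = 0.0669) was left out. Gjc3 and Gja1 thus ran in opposite directions between the compartments, one higher in the AF and the other in the NP.

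The genes most like Gja1 over the 16 arrays were Barx2 (r = 0.95), Bsg (r = 0.949), Anxa1 (r = 0.943), Cck (r = 0.937) and Angptl1 (r = 0.934). Their r stayed between 0.704 (Anxa1) and 0.928 (Barx2) after the group means were taken off. Each was higher in CTR NP than in CTR AF, by log2 differences from 0.71 (Bsg) to 2.48 (Angptl1). Barx2 is a homeobox factor and Bsg, basigin, partners lactate transporters.

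Panx3 was above background in the AF alone, and its difference between AF cKO and AF CTR did not pass the test. It had 5.56, 5.59, 5.91 and 5.71 log2 signal in NP cKO and 5.52, 5.50, 5.13 and 6.14 in NP CTR, with no array above background. In the AF it had 11.57, 9.38, 10.81 and 10.02 on the cKO arrays, against 15.85, 11.01, 6.91 and 10.25 on the CTR arrays, with 2 of 4 above background in each group. The CTR arrays spread widely, and every cKO array lay inside their range.

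Panx3 averaged 10.45 ± 0.95 in AF cKO and 11.01 ± 3.69 in AF CTR (log2 difference -0.56, SE 1.10, 95% interval -2.86 to 1.74, adjusted p = 0.887). The sign rested on single arrays: the difference was 1.06 without AF CTR replicate 1 and -1.92 without AF CTR replicate 3. Leaving out AF cKO replicates 2 and 4, a choice made after seeing the data, gave 0.19. Panx3 was lower in CTR NP than in CTR AF by at least 1.51-fold (log2 difference -5.43, SE 1.10, adjusted p = 0.00167) and lower in cKO NP than in cKO AF by at least 1.06-fold (-4.76, SE 1.10, adjusted p = 0.00425). Both bounds are small because the NP arrays and 2 AF arrays of each group were below background, and the arrays did not overlap.

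Among the 4 AF CTR arrays, Panx3 had the same order as Col10a1, and among the AF cKO arrays it did not. Col10a1, the collagen of hypertrophic chondrocytes, chosen after its values were seen, had 12.35, 10.58, 10.34 and 9.79 in AF cKO replicates 1 to 4, against 17.40, 14.26, 9.47 and 11.71 in AF CTR replicates 1 to 4. The CTR array with the highest Panx3, replicate 1, had the highest Col10a1, and the CTR array with the lowest Panx3, replicate 3, had the lowest. In AF cKO, Panx3 was lowest on replicate 2 and Col10a1 on replicate 4. The list of 7 hypertrophic genes averaged 12.58, 11.81, 12.88 and 10.89 in AF cKO, against 14.33, 12.30, 10.41 and 11.46 in AF CTR. Osteoblast genes were above background on AF arrays alone (10 of 12 on at least 1 array in AF cKO, 9 of 12 in AF CTR, none in the NP). Only 2 of 12 were above it on all 4 arrays, in AF cKO and likewise in AF CTR. How much of such tissue each AF sample held was not tested.

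**Figure D3:**
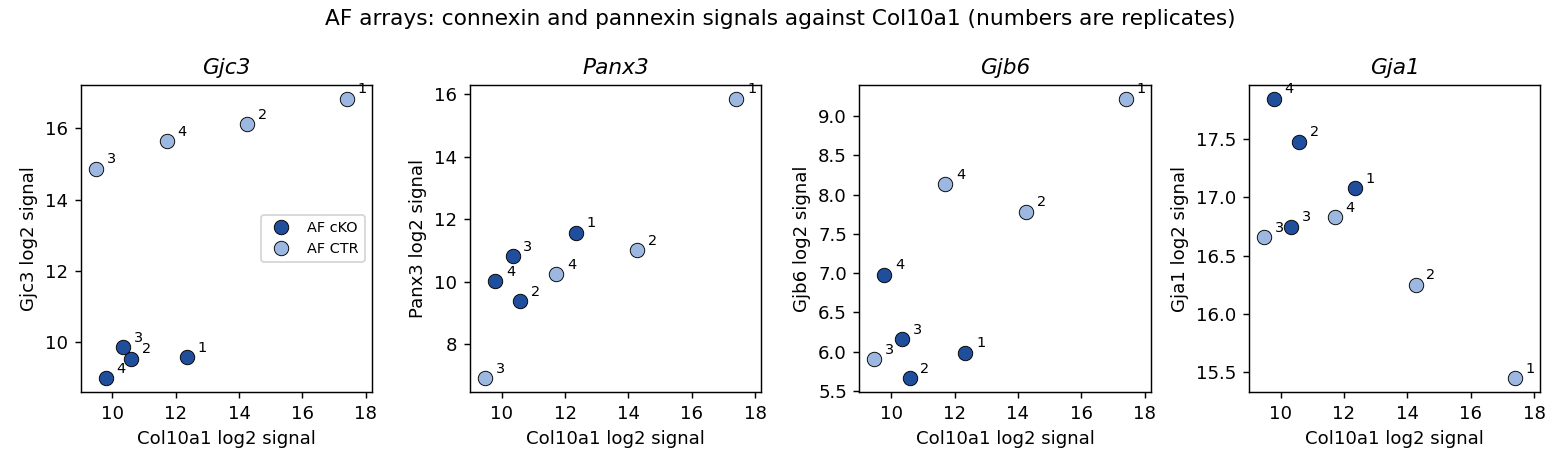
Log2 signals of Gjc3, Panx3, Gjb6 and Gja1 (vertical axes, each with its own range) against Col10a1 (horizontal axis) on the AF arrays, dark for AF cKO and light for AF CTR, with replicate numbers beside the points. Among the CTR arrays Gjc3, Panx3 and Gja1 are ordered by Col10a1, Gja1 in reverse, apart from the Gja1 order of replicates 3 and 4. Gjb6 departs from that order at CTR replicates 2 and 4. Among the cKO arrays none of the plotted genes is ordered by Col10a1. Col10a1 spans 9.79 to 12.35 in AF cKO and 9.47 to 17.40 in AF CTR.

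Gjb6, a connexin of the cochlea and epithelia, was below background on all 16 arrays. In the AF it had 5.99, 5.66, 6.16 and 6.98 on the cKO arrays, against 9.22, 7.78, 5.90 and 8.14 on the CTR arrays. The groups overlapped at AF CTR replicate 3, the array low in Col10a1. The log2 difference of -1.56 (SE 0.49) did not pass the test (adjusted p = 0.275), and passed it only without AF CTR replicate 3 (-2.18, adjusted p = 0.0147). In the NP, Gjb6 had 5.07 to 6.41 on the cKO arrays and 5.49 to 6.26 on the CTR arrays. It was lower in CTR NP (mean 5.82 ± 0.39) than in CTR AF (mean 7.76 ± 1.38) with an adjusted p of 0.00938, and the arrays overlapped. No fold is given, since neither group had an array above background.

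The other 4 genes were at background on all 16 arrays. Gja4, a connexin of endothelium, ranged from 5.11 to 6.7 over the 16 arrays, with means of 5.72 in NP cKO and 5.49 in NP CTR, and 6.07 in AF cKO and 5.67 in AF CTR. Gjb2, which pairs with Gjb6 in the cochlea, averaged 6.73 in NP cKO and 6.97 in NP CTR, and 6.74 in AF cKO and 6.91 in AF CTR. Gjc1, a connexin of the heart conduction system and smooth muscle, averaged 6.57 in NP cKO and 6.64 in NP CTR, and 7.06 in AF cKO and 7.28 in AF CTR. Panx1, the widespread ATP release channel, averaged 5.26 in NP cKO and 4.90 in NP CTR, and 5.01 in AF cKO and 5.22 in AF CTR. None of these passed in any comparison. Gjc1 was 0.64 lower in CTR NP than in CTR AF (adjusted p = 0.0827), and passed only without NP CTR replicate 2 (adjusted p = 0.0377). The NP arrays of Panx1 did not overlap, all cKO above all CTR, as for 1.11% of all probe sets in that direction, but the values lie below the background of every array.

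Among the 7 genes other than Gjc3, none passed the test of cKO against CTR in the NP, where 0.122% of all probe sets did, and none in the AF, where 0.0991% did. None passed in the difference of the changes, where limma called 0 of all probe sets (6.74% at an unadjusted p under 0.05). In CTR, 4 of 8 passed for NP against AF (Gjc3, Gja1, Gjb6 and Panx3), where 20.1% of all probe sets did. In cKO, 3 of 8 passed (Gjc3, Gja1 and Panx3), where 25.9% of all did. Shares of this kind on 8 genes, of which 5 sit at background, describe the list and single out none of it.

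**Figure D4:**
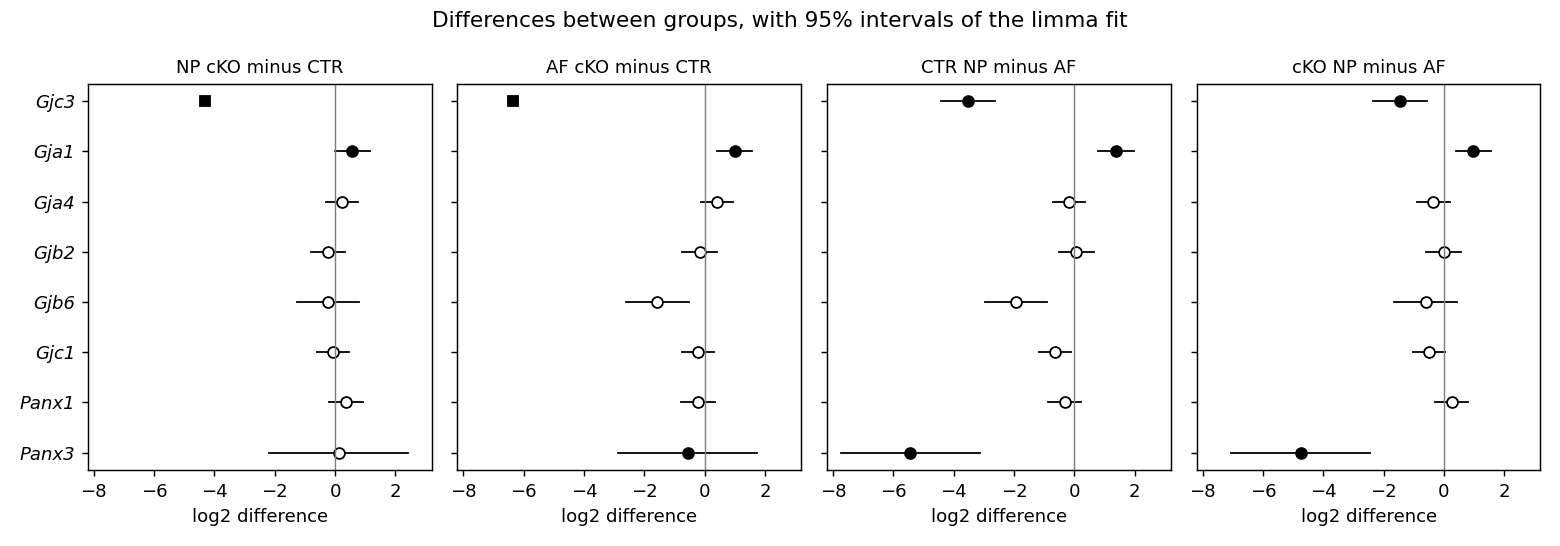
Log2 differences (horizontal axis) of the 8 genes in 4 comparisons, each with the 95% interval of the limma fit. Filled symbols mark genes with at least 1 array above background in either group, open circles those with none, and squares without a bar are the Gjc3 values that chose the gene. Gja1 and Panx3 lie on opposite sides of 0 in NP minus AF, and every interval of Panx3 is wide.

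The rest of the family, where measured, was not above background on any array. Of 23 connexin and pannexin genes listed, 19 were measured, and the 11 not described above lay between 3.71 and 8.66 on all arrays. None of these 11 passed in either comparison of cKO with CTR. Gjd2, the neuronal connexin, passed as higher in CTR NP than in CTR AF (0.92, adjusted p = 0.00638), where 20.1% of all probe sets passed. It also passed as higher in cKO NP than in cKO AF (0.64, adjusted p = 0.0414). In cKO NP minus AF, Gja3 and Gja6 passed as higher and Gja5 as lower, where 25.9% of all probe sets passed. All these genes were at background. The median difference of the 19 was -0.13 in the NP and -0.10 in the AF, next to 0.00 and -0.03 over all probe sets.

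Genes that work with these channels did not pass in either comparison of cKO with CTR: 0 of 14 other large-pore channels, 0 of 17 scaffolds and partners, 0 of 18 kinases and turnover genes, 0 of 14 receptors of nucleotides and adenosine, and 0 of 13 genes of nucleotide release and breakdown. Of all probe sets, 0.122% passed in the NP and 0.0991% in the AF, so the absence of calls in such short lists says little about them. In the AF, 17 of the 18 kinases and turnover genes lay above 0, with a median of 0.32, beside 10305 of 22206 and a median of -0.03 over all probe sets, and none of the 18 passed. Marker lists of blood and marrow cells were also higher on average in AF cKO: neutrophil genes averaged 10.47 ± 1.43 in AF cKO and 7.85 ± 1.92 in AF CTR, macrophage genes 7.79 ± 0.51 in AF cKO and 7.16 ± 0.72 in AF CTR, and erythroid genes 7.67 ± 0.85 in AF cKO and 6.7 ± 0.48 in AF CTR. The arrays overlapped in all 3 lists, and their part in these values was not tested. Of the 18 kinases and turnover genes, Trim21, a ubiquitin ligase, and Map1lc3b, the autophagy marker, led with log2 differences of 1.05 and 0.59 (adjusted p = 0.133 and 0.386). The Trim21 means, 6.46 in AF cKO and 5.41 in AF CTR, both lay below background, so the size of its difference is not a measured fold.

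Between the compartments of control mice these partners differed in part. Of the 17 scaffolds and partners, 7 passed as higher and 1 as lower in CTR NP, where 20.1% of all probe sets passed. Cdh2, the cadherin of notochordal cells, was higher by 1.51 (SE 0.31, adjusted p = 0.00190), and so were the caveolins Cav1 (1.41) and Cav2 (1.76) and Ccn3 (1.83), a matricellular protein that binds connexin 43. Cdh11, a mesenchymal cadherin, was lower, with a log2 difference of -2.11 (SE 0.52, adjusted p = 0.00772). In cKO the count was 5 higher and 1 lower, where 25.9% of all probe sets passed, with Cdh2 at 1.19 and Cdh11 at -2.17.

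Genes that handle extracellular nucleotides, the cargo of pannexins and hemichannels, differed in part: 7 of 13 passed as lower in the NP and none as higher, in CTR, where 20.1% of all probe sets passed, and again in cKO, where 25.9% did. The osteoblast and bone list, which also holds Alpl, averaged 6.22 in CTR NP and 10.35 in CTR AF, and the endothelium list 5.66 in CTR NP and 7.36 in CTR AF, and their part in these differences was not tested. In CTR the log2 differences were -6.03 for Alpl (adjusted p = 2.5e-06), the phosphatase of mineralizing tissue, and -3.22 for Nt5e (adjusted p = 0.00221), which makes adenosine from AMP. They were -2.86 for Slc29a1, a nucleoside transporter, and -1.91 for Adk, adenosine kinase. The CTR NP means of these genes lay below the 95th percentile of the negative controls, so the sizes are not measured folds. In CTR AF, Nt5e (8.79) and Slc29a1 (9.83) lay below it too, and Alpl (10.36) was near it. No nucleotide or adenosine receptor of the 14 measured was above background on any array, though 5 passed in CTR (1 higher, 4 lower), beside 20.1% of all probe sets. Of the large-pore channels, Ttyh2 (-2.53), Ttyh3 (-2.26) and Lrrc8c (-1.70) were lower and Calhm6 (0.66) and Lrrc8e (0.63) higher in CTR NP, with means for all 5 below the 95th percentile of the negative controls. Prkcd (-2.0) and Prkce (-0.85), kinases that phosphorylate connexin 43, were lower in CTR NP, and Trim21 (1.09), Map1lc3b (0.88) and Sqstm1 (0.70) higher. These were 2 lower and 3 higher of 18, beside 20.1% of all probe sets. The means of Prkcd, Prkce and Trim21 lay below the 95th percentile of the negative controls in both CTR groups.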

How the data were processed

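The 16 samples are NP and AF tissue of 8 mice, 4 arrays per group, measured with 1-colour Affymetrix arrays. Per the labels' protocols, RNA was extracted with RNeasy columns and labelled with the GeneChip WT Plus kit. The deposited values are log2 signals, normalized by the authors with sst-RMA per the labels, in Transcriptome Analysis Console per the submitters' processing notes (version not given in the sources used here). A detection p, a p under 0.05 and a fold of 1.75 stand in the labels as filters, and the table had not been filtered by them.

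Of 28846 probe sets, 6640 controls were left out and 22206 tested. The log2 values were used as deposited and modelled by limma 3.58.1 (R 4.3.3) with 4 group means over all 16 arrays, with Benjamini-Hochberg adjusted p under 0.05 as the threshold and 95% intervals from the same fit. Errors beside means are SDs with n = 4. Whether a dim probe set is absent cannot be told, so a group with no array above the 95th percentile of the negative controls gives only a bound, set at the higher of the signal and that percentile. The fit was tested on simulated data. The number of arrays limits the precision.

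Probe sets were named from GEO's platform annotation, and 19572 carried 1 symbol, for 19505 genes. The members and lists were chosen with earlier results of these data known. Named genes are the 8 members, Sox9, the 8 and 5 genes most like Gjc3 and Gja1 by Pearson r, and members of the fixed lists that passed, or the 2 with the smallest p. The alternatives tried were the omission of each array, the labels' thresholds, blocks for animal or replicate number, only the 8 arrays compared, a moderation with an intensity trend, only the brightest probe set of each gene, omission of dim probe sets, quantile normalization repeated, and median centring. After the data had been seen, 2 joint omissions were added, of AF cKO replicates 2 and 4 and of AF CTR replicate 1 with AF cKO replicate 3. NP and AF arrays sharing a title code are from the same animal. Once group means were removed, r within these 8 pairs ran from -0.293 to 0.348 and exceeded 0.1 in 3.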

Additional observations from a re-analysis of the deposited data

Results flagged for a closer look

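In 3 of 36 groups of 4 arrays, 1 array stood far from the other 3 by Dixon's ratio, where chance sets apart about 1 in 20 groups. Gja4 was 6.38 on AF CTR replicate 4, against 5.41 to 5.47 on the other AF CTR arrays. Gjb2 was 6.11 on NP cKO replicate 3, against 6.87 to 7.01 on the others. Panx1 was 5.63 on NP cKO replicate 2, against 5.13 to 5.15 on the others. All these values lie below the 95th percentile of the negative controls.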

How the results depend on the processing

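No called difference of the 8 genes changed sign in any alternative. Under the thresholds of the labels, Gja1 and Gjb6 would pass in the AF (2 of 7 genes), and 262 probe sets in the NP, 774 in the AF and 977 in the difference of the changes. In the AF, where 22 probe sets passed, a second quantile normalization gave 37, the filter on dim probe sets 12, the 8 AF arrays alone 8, the replicate number as a fixed replicate block 4, the omission of AF cKO replicates 2 and 4 gave 34, and that of AF CTR replicate 1 with AF cKO replicate 3 gave 112. In the difference of the changes, 1 probe set passed after a second quantile normalization and after each of these omissions. With the filter on dim probe sets, which tests 2734, 997 passed for CTR NP minus AF and 2 of the 8 genes (Gjc3 and Gja1), the others not being tested, and 809 for cKO NP minus AF. Without AF cKO replicates 2 and 4, 3800 passed for cKO NP minus AF. Leaving out 1 array gave 10 to 31 probe sets in the NP, 12 to 142 in the AF (142 without AF CTR replicate 1) and 0 to 3 in the difference, and 0 to 1 of the 7 genes in the AF, 4 to 5 of 8 in CTR NP minus AF, and 1 to 3 of 8 in cKO NP minus AF. The animal as a replicate block changed no call of the 8 genes; the same replicate number in cKO and CTR marks no shared animal (r from -0.275 to 0.208). Each gene had 1 probe set, so no other could be tried. Background limits 5 of the 8 genes on every array.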
